A study of Mus musculus with 6 samples.

Results

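The interferon response genes described here are 42 named human genes, chosen by name: the receptor subunits and kinases of type I interferon signalling, the transcription factors they act through, and genes that interferon induces. Of these, 40 had a probe set that the platform annotation gave to 1 gene only, and they were read among 18417 such genes in all. STAT2 was not analysed here. GBP1, a guanylate-binding GTPase, was left without a value because its probe set is shared with GBP3 and GBP1P1. Tumours were raised by injecting SK-N-BE(2), a MYCN-amplified neuroblastoma cell line of human origin, into the adrenal gland of NSG mice, which have no T, B or natural killer cells of their own but keep myeloid cells. Treated mice (BL-8040, 3 tumours) received 400 µg of BL-8040, a peptide that blocks the chemokine receptor CXCR4, under the skin on 14 consecutive days from day 7 after cell injection. Control mice (Ctrl, 3 tumours) carried the same cells; the sources used here do not say what they received, nor the age of either group. Each tumour was read on 1 array of human probe sets, made for human transcripts; the share of signal that came from mouse RNA was not measured.

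Type I interferons bind a receptor made of IFNAR1 and IFNAR2, whose kinases TYK2 and JAK1 phosphorylate transcription factors such as STAT2, which acts with IRF9 at the interferon-stimulated response elements of target genes. The target genes encode proteins that sense, cut or sequester viral RNA, modify host proteins with the ubiquitin-like ISG15, and hold back viruses at entry, replication or budding. Neuroblastoma cells are known for low antigen presentation, which interferons can raise. All values are log2 signals as deposited, and a difference is BL-8040 minus control in log2 units. In a bulk tumour, fewer cells of a type and less RNA per cell cannot be told apart.

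The 6 arrays had medians between 5.35 and 5.42 and correlated across genes with r from 0.992 to 0.997. BL-8040 replicate 3 stood apart from the rest, with an array weight in limma of 0.473 against 0.804 to 1.81 for the other 5. Many of the differences that rest on it are given with and without it. Without this array the difference of 20 members moved by over 1.5 times at the same sign, that of 8 changed sign, and that of 12 did neither. The difference of USP18 went from -0.012 to -0.18 without it, that of GBP2 from -0.03 to -0.12, and that of SP110 from -0.0037 to 0.0981. The tumours carried the markers of their label. MYCN had a 6-array mean of 12.22, and all 9 measured genes of the neuroblastoma marker list, the catecholamine enzyme genes TH, DBH and DDC among them, lay at or above the median signal of all genes. None of the 13 measured T, B and NK cell markers did, but only 3 of 14 host myeloid and 1 of 10 endothelial markers did either. Of the 9 host fibroblast markers 7 did. With human probe sets and no detection call, these counts cannot show which mouse cells were present.

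After BL-8040 the interferon response genes showed no shared shift. Of the 40 measured members, 20 were higher and 20 lower than in controls, with a median difference of -0.0011, beside -0.02 over all 18417 genes, of which 41.5% were higher. Centring each array on its median or quantile normalization made the members' split 24 higher and 16 lower. No member passed the test. In limma, 0 of 40 had a Benjamini-Hochberg adjusted p under 0.05, where 0% of all genes did, and the smallest adjusted p of a member was 0.644. At an unadjusted p under 0.05 stood 3 members, IFNAR2 and IFIT5 on the higher side and MX2 on the lower, or 7.5% against 7.72% of all genes (1422 genes; 2.64% higher and 5.08% lower), a share near the background.

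The 95% interval of a member's difference reached 0.196 log2 units to each side at the median, a 1.15-fold change. In 38 of the 40 members the whole interval lay within 0.58 log2 units, or 1.49-fold, of no change, and in all 40 it lay within 1 log2 unit, or 2-fold. The 2 members with wider bounds were BST2, with an interval from -0.87 to 0.06, and RSAD2, with one from -0.23 to 0.89. These are intervals per gene, not adjusted for the number of genes.

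**Figure D1:**
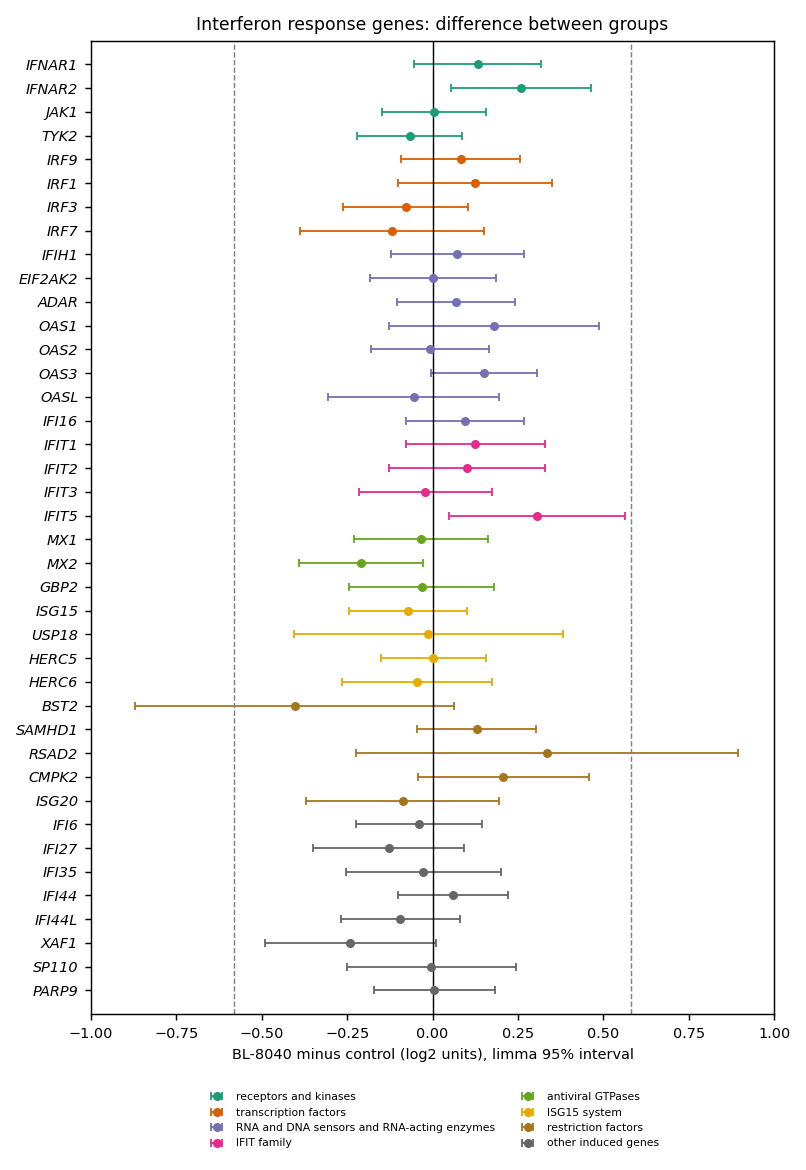
Difference between BL-8040 and control tumours (x axis, log2 units) for each of the 40 measured interferon response genes (y axis), coloured by role. Points are group differences over 3 arrays each, bars are limma 95% intervals, and dashed lines mark 0.58 log2 units; only the bars of BST2 and RSAD2 cross them.

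The 3 treated values lay wholly above the 3 controls in 6 members and wholly below in 2. These were IFNAR2, IFIT5, OAS3, CMPK2, SAMHD1 and IFI16 on the higher side, and MX2 and TYK2 on the lower. As shares of the 40 members they came to 15% and 5%, against 4.93% and 9.05% of all genes (14.0% in either direction, against 20% of the members). With each array centred on its median the members counted 8 higher and 1 lower, against 6.42% and 6.87% of all genes. With 1 array left out, between 6 and 10 members were higher without overlap and between 2 and 5 lower, against 7.97% to 11.1% and 13.0% to 18.3% of all genes. The 10 came without BL-8040 replicate 2 and the 5 without Ctrl replicate 1, and 4 members were lower without BL-8040 replicate 1 or without BL-8040 replicate 2. Groups of fewer arrays are separate more often in every gene, so each count is read beside its own background.

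**Figure D2:**
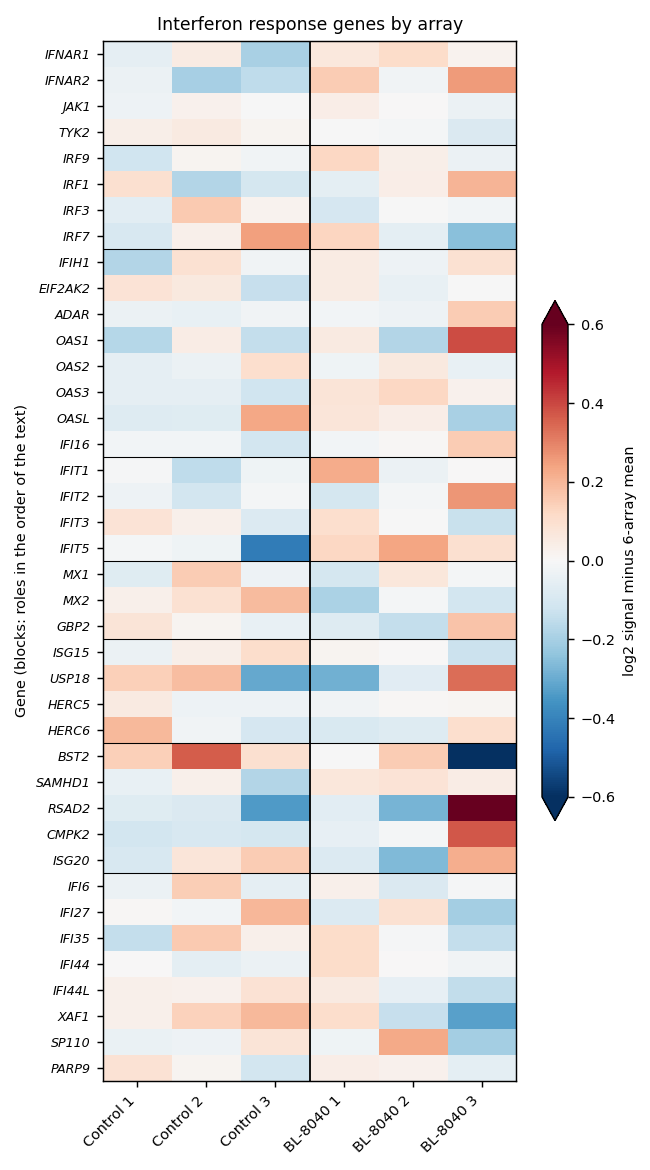
Log2 signal of each of the 40 measured interferon response genes (rows, grouped by role) in each of the 6 arrays (columns), as the distance from the gene's own mean over the 6 arrays in log2 units; the colour scale ends at 0.6 on either side. No block of rows is higher or lower throughout in the 3 BL-8040 columns, and the strongest colours, those of RSAD2 and BST2, stand in BL-8040 replicate 3.

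Among the receptor genes, IFNAR2, the subunit that carries JAK1, had the smallest p of all members. BL-8040 replicates 1, 2 and 3 measured 5.51, 5.34 and 5.61, and the controls 5.32, 5.15 and 5.20. The groups did not overlap, although the lowest treated value and the highest control value lay 0.0153 log2 units apart. The difference was 0.26 ± 0.09 (SE), or 1.20-fold, with an adjusted p of 0.644 in limma and an exact permutation p of 0.1, the smallest that 3 against 3 arrays can give. IFNAR1, the partner subunit that carries TYK2, measured 7.02, 7.07 and 6.98 after BL-8040 and 6.90, 7.01 and 6.76 in controls. Its groups overlapped through Ctrl replicate 2, and the difference was 0.13 ± 0.08 (SE), with an adjusted p of 0.688. Without Ctrl replicate 3, the lowest value, the IFNAR1 difference was 0.07.

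Both kinase genes had a small spread. JAK1 measured 8.30, 8.27 and 8.23 after BL-8040 and 8.23, 8.29 and 8.26 in controls, so that all 6 arrays fell within 0.075 log2 units. Its 95% interval ran from -0.15 to 0.16. TYK2 measured 7.49, 7.48 and 7.40 against 7.52, 7.54 and 7.50. Every treated TYK2 value was below every control value, but by a difference of -0.07 ± 0.07 (SE) with an adjusted p of 0.796, or -0.04 without BL-8040 replicate 3.

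Of the 4 transcription factor genes measured, none had separate groups. IRF9, the DNA-binding partner of STAT2, measured 7.77, 7.68 and 7.61 after BL-8040 and 7.53, 7.66 and 7.63 in controls, with BL-8040 replicate 1 highest and replicate 3 inside the control range. The IRF9 difference of 0.08 had a 95% interval from -0.09 to 0.26. It was 0.04 without BL-8040 replicate 1. IRF1, a factor that interferon gamma induces, stood at 5.35 ± 0.13 against 5.23 ± 0.14 (n = 3 each, SD), and IRF7, which amplifies type I interferon production, at 6.11 ± 0.19 against 6.23 ± 0.17. IRF3, the constitutive factor that first switches on interferon beta, was 6.88 ± 0.05 against 6.96 ± 0.11. Without BL-8040 replicate 3 the difference of IRF1 went from 0.12 to 0.05 and that of IRF7 from -0.12 to -0.02, and without Ctrl replicate 2 that of IRF3 from -0.08 to -0.02. Limma adjusted p for these 4 genes lay between 0.744 for IRF1 and 0.797 for IRF3.

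**Figure D3:**
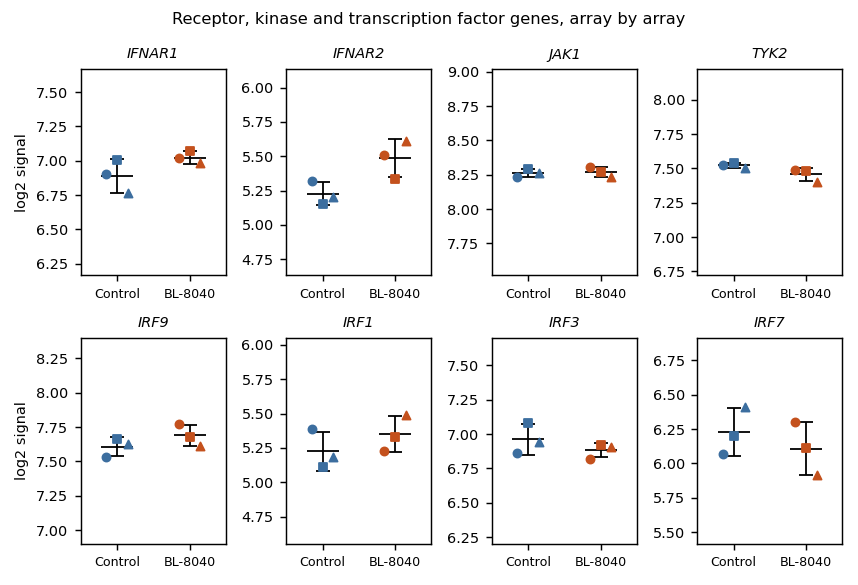
Log2 signal (y axis, 1.5 log2 units tall in each panel) of the receptor, kinase and transcription factor genes in 3 control (blue) and 3 BL-8040 tumours (orange); circles, squares and triangles are replicates 1, 2 and 3, and black bars are mean and SD. Only IFNAR2 and TYK2 have groups that do not overlap, on opposite sides.

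The genes that sense nucleic acids or act on RNA included the members with the highest signals, which depend on the probe as well as on the transcript and so do not rank genes by abundance. IFI16, a sensor of DNA, measured 10.40, 10.42 and 10.56 after BL-8040 and 10.39, 10.40 and 10.30 in controls. The groups were separate by 0.0009 log2 units at their nearest values, and the difference was 0.10 ± 0.08 (SE), or 0.04 without BL-8040 replicate 3. ADAR, the enzyme that edits adenosine to inosine in double-stranded RNA, measured 8.76, 8.75 and 8.93 against 8.75, 8.74 and 8.76. Its difference of 0.07 came from BL-8040 replicate 3, and without that array it was 0.0088. EIF2AK2, the kinase PKR that halts translation when it binds double-stranded RNA, measured 8.81, 8.72 and 8.76 against 8.85, 8.82 and 8.63, with the treated values inside the control range and a difference of 0.0014 ± 0.08 (SE). IFIH1, the RNA sensor MDA5, was dim at 2.48 ± 0.06 against 2.41 ± 0.13 (n = 3 each, SD).

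The oligoadenylate synthetases make the messenger that activates RNase L. OAS3, the largest of them, measured 6.30, 6.34 and 6.25 after BL-8040 and 6.17, 6.17 and 6.10 in controls. All treated values were above all controls, by 0.15 ± 0.07 (SE) or 1.11-fold, with an adjusted p of 0.646 and an exact permutation p of 0.1. With 1 array left out the OAS3 difference stayed between 0.13 and 0.17. OAS1 stood 0.18 higher with overlapping groups, and 0.03 higher without BL-8040 replicate 3. OAS2 differed by -0.0075, and OASL, a relative without synthetase activity, by -0.06. The OAS2 difference turned to 0.01 with median centring and to 0.03 with quantile normalization.

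In the IFIT family, whose proteins bind viral RNA, IFIT5 had the largest difference of any member whose groups did not overlap. It measured 6.90, 7.01 and 6.87 after BL-8040 and 6.76, 6.75 and 6.36 in controls. The difference was 0.31 ± 0.11 (SE), or 1.24-fold, with an adjusted p of 0.644 and an exact permutation p of 0.1. The lowest value, that of Ctrl replicate 3, set much of its size: without it the IFIT5 difference was 0.17. The other 3 family members were dimmer and overlapped, IFIT1 at 3.68 ± 0.14 against 3.56 ± 0.08, IFIT2 at 4.28 ± 0.19 against 4.18 ± 0.05, and IFIT3 at 4.14 ± 0.12 against 4.16 ± 0.08 (n = 3 each, SD). The IFIT2 difference of 0.10 was -0.0065 without BL-8040 replicate 3, and the IFIT3 difference of -0.02 turned to 0.02 with quantile normalization. Their adjusted p lay between 0.723 and 0.953.

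All 3 measured antiviral GTPases were lower at dim signals, but only MX2 kept its sign in every alternative. GBP2 was lower where its brighter probe set stood for it, and its difference was 0.02 with the mean of its probe sets. The MX1 difference was 0.03 without Ctrl replicate 2. MX2, which blocks nuclear entry of retroviral genomes, measured 3.32, 3.49 and 3.40 after BL-8040 and 3.54, 3.60 and 3.70 in controls. Every treated value was below every control, by -0.21 ± 0.08 (SE) or 0.865 times the control level, with an adjusted p of 0.644 and an exact permutation p of 0.1. MX2 lay at percentile 13.9 of all genes by signal, and no detection call was available. MX1, the related GTPase that traps viral nucleoproteins, differed by -0.03, and GBP2, a GTPase that interferon gamma induces, by -0.03 in its brighter probe set and 0.07 in the other.

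The ISG15 system attaches ISG15 to proteins (HERC5) and removes it (USP18), and HERC6, a relative of HERC5, is listed with it. None of its 4 genes had separate groups. ISG15 itself measured 5.45 ± 0.08 after treatment against 5.52 ± 0.07 (n = 3 each, SD), with an interval from -0.25 to 0.10. HERC5 and HERC6 were dim, at 2.77 ± 0.02 against 2.77 ± 0.05 and 2.90 ± 0.11 against 2.95 ± 0.15. USP18, which also binds IFNAR2 and dampens its signalling, varied more within each group than between them, at 6.18 ± 0.31 against 6.19 ± 0.27. Another USP18 probe set, not used here, is shared with the related USP41P, so signal of the copies may not be fully separate.

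The restriction factors held the widest spread. SAMHD1, which depletes the nucleotides that viral DNA synthesis needs, measured 6.51, 6.52 and 6.48 after BL-8040 and 6.39, 6.47 and 6.26 in controls. The groups were separate, by a difference of 0.13 ± 0.08 (SE) and an adjusted p of 0.680, and the difference was 0.07 without Ctrl replicate 3. BST2, or tetherin, which holds budding virus on the cell surface, measured 6.83, 6.98 and 6.08 against 6.97, 7.19 and 6.93. BL-8040 replicate 2 lay inside the control range, replicate 1 below it and replicate 3 far below it. The difference of -0.40 ± 0.21 (SE), the lowest of all members, was -0.13 without BL-8040 replicate 3. RSAD2, or viperin, which makes a nucleotide that ends viral RNA chains, measured 4.04, 3.82 and 4.95 against 4.03, 4.01 and 3.76. It had the highest difference of all members, 0.33 ± 0.25 (SE), which was -0.0047 without BL-8040 replicate 3. CMPK2, the mitochondrial nucleotide kinase encoded beside RSAD2, measured 6.10, 6.13 and 6.52 against 6.03, 6.05 and 6.04. The 3 controls agreed to an SD of 0.0068, all treated values were above them, and the difference of 0.21 was 0.07 without BL-8040 replicate 3. ISG20, an RNA exonuclease, stood at 5.68 ± 0.24 against 5.77 ± 0.13 (n = 3 each, SD), a difference of -0.09 that was -0.22 without BL-8040 replicate 3.

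Of the 8 other induced genes, 6 were lower (SP110 turned to 0.02 with median centring) and none had separate groups. XAF1, a promoter of apoptosis that interferon induces, measured 4.67, 4.43 and 4.24 after BL-8040 and 4.60, 4.71 and 4.76 in controls. BL-8040 replicate 1 lay within the control range and the other treated arrays below it, for a difference of -0.24 ± 0.11 (SE) with an adjusted p of 0.646. Leaving out BL-8040 replicate 3 gave an XAF1 difference of -0.14, and leaving out replicate 1 of that group gave -0.35. IFI6, a mitochondrial and ER protein that counters apoptosis, measured 7.74, 7.63 and 7.71 against 7.68, 7.86 and 7.66, a difference of -0.04 with groups that overlapped throughout. IFI27 measured 4.93 ± 0.15 against 5.06 ± 0.12 (n = 3 each, SD), a difference of -0.13 that became -0.06 when BL-8040 replicate 3 was left out and -0.21 when replicate 2 of that group was. IFI35 measured 6.08 ± 0.13 against 6.11 ± 0.15. IFI44 and IFI44L, among the genes most widely used to score an interferon response, were at the bottom of the array, at 2.24 ± 0.07 against 2.18 ± 0.03 and 2.44 ± 0.10 against 2.53 ± 0.03, or percentiles 0.836 and 2.67 of signal. SP110, a nuclear body protein, and PARP9, an ADP-ribosyltransferase partner of DTX3L, differed by -0.0037 and 0.0044.

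The largest departures were those of single tumours. BL-8040 replicate 3 held the highest value of 12 members and the lowest of 12, where each of the other 5 arrays held the highest of 4 to 8 and the lowest of 3 to 11. In 9 members this array lay at least 0.3 log2 units from the mean of the other 2 treated arrays, a set picked out after its values were seen. RSAD2 stood above that mean by 1.02, USP18 by 0.51, OAS1 by 0.45, CMPK2 by 0.40, ISG20 by 0.39 and IFIT2 by 0.32. BST2 stood 0.83 below it (-0.83), XAF1 at -0.31 and SP110 at -0.31. Over all 40 measured members this array lay above the mean of the other treated arrays in 17 and below it in 23. Besides the 9, it was above, among others, for GBP2 (0.28), IRF1 (0.21), IFNAR2 (0.19), HERC6 (0.18) and ADAR (0.18), and below for IRF7 (-0.29), OASL (-0.25), IFI27 (-0.21) and IFIT3 (-0.18). In the same array the markers of neuroblastoma cells had a median of -0.21 against each gene's 6-array mean. The other 5 arrays lay between -0.04 and 0.24. The host fibroblast markers had a median of 0.09, with the other 5 arrays between -0.14 and 0.08, but the list was split. COL1A1 (9.65, 6-array mean 9.02) and COL1A2 (8.15, mean 7.14) were above their means. DCN (9.29, mean 9.61) and PDGFRB (9.13, mean 9.36) were below theirs. The part of these markers in the members' values was not tested.

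**Figure D4:**
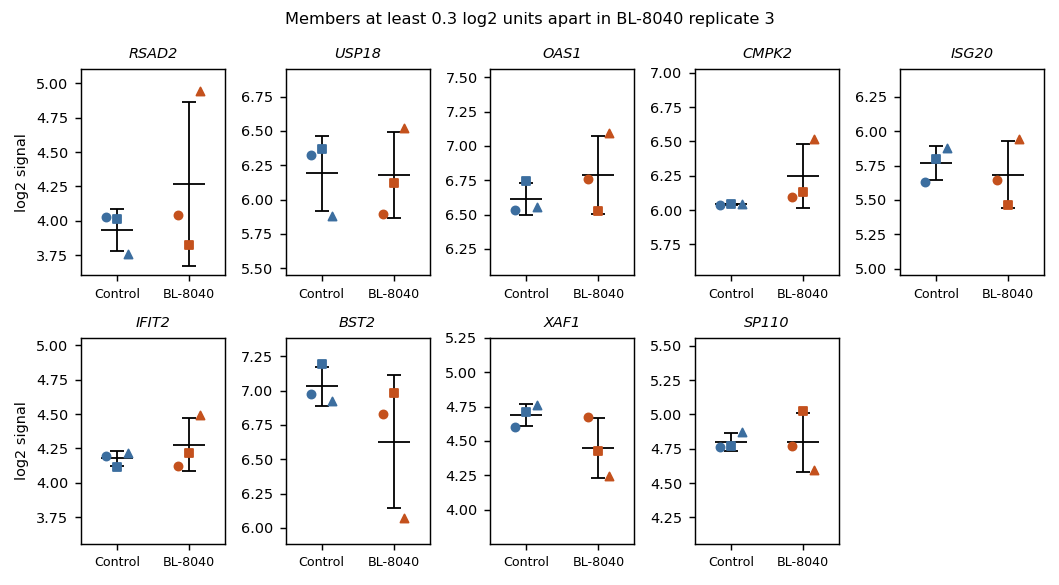
Log2 signal (y axis, 1.5 log2 units tall in each panel) of the 9 members in which BL-8040 replicate 3 lay at least 0.3 log2 units from the mean of the other treated arrays, in 3 control (blue) and 3 BL-8040 tumours (orange); circles, squares and triangles are replicates 1, 2 and 3, and black bars are mean and SD. The triangle of BL-8040 is the highest point for RSAD2, USP18, OAS1, CMPK2, ISG20 and IFIT2 and the lowest for BST2, XAF1 and SP110.

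The mean correlation between pairs of members over the 6 arrays was -0.0032, beside 0.02 between pairs of all genes, and 0.70 between pairs of the 9 neuroblastoma markers, as a description over 6 arrays that every gene shares. Among the 18 members at or above the median signal it was 0.12, and among the 22 dimmer ones -0.04. Of the role groups, the 8 other induced genes had the highest value, 0.23, or 0.28 with the group means taken out. The median of the 40 members against each gene's 6-array mean was 0.02, -0.0040 and -0.0032 for BL-8040 (replicates 1, 2 and 3) and -0.03, 0.02 and -0.03 for Ctrl, so that Ctrl replicate 2 lay above 2 of the 3 treated arrays. The members at or above the median signal had 11 higher and 7 lower genes with a median difference of 0.04, and the dimmer ones 9 and 13 with -0.01.

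Beyond the members, 105 measured genes in 5 further lists of the interferon pathway were read in the same fit, 40 higher and 65 lower with a median difference of -0.03. None passed (limma, 0 of 105 with an adjusted p under 0.05, smallest 0.644), and 7, or 6.67%, had an unadjusted p under 0.05 against the 7.72% of all genes. Separate groups counted 6 higher and 7 lower, or 12.4% of these genes against 14.0% of all genes. Of 16 interferon ligand genes 7 were higher and 9 lower. The ligands with the smallest p were IFNA10 (0.38), IFNW1 (-0.29) and IFNK (-0.17), given as differences, and the list's median signal was 2.89, so that these differences lie among the dimmest values of the array. In the list of the other interferon receptors and of regulators, 3 of 12 genes were higher. The kinase gene JAK2 differed by 0.18 and PIAS1, a SUMO ligase that dampens interferon signalling, by 0.14. IL10RB, a subunit of the interferon lambda receptor, differed by -0.10. The groups of PIAS1 and IL10RB were separate, and those of JAK2 overlapped.

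Of 16 nucleic acid sensing genes upstream of interferon, 7 were higher. TBK1, the kinase that activates IRF3, measured 7.01 ± 0.09 after treatment against 6.81 ± 0.12 (n = 3 each, SD), and RIGI, the RNA sensor RIG-I, at 4.16 ± 0.09 against 4.01 ± 0.07, both with separate groups. DHX58, a regulator of that sensor, differed by -0.10. Among 50 further induced genes 17 were higher and 33 lower, with a median of -0.05. The smallest p of that list was that of IRF8, a factor of myeloid cells, at 3.63 ± 0.14 against 3.97 ± 0.05. Next came the chemokine gene CXCL9 at 2.89 ± 0.17 against 2.60 ± 0.11 and TRIM38 at 4.51 ± 0.05 against 4.32 ± 0.04. Each of these genes had separate groups, lower for IRF8 and higher for CXCL9 and TRIM38. Their signals were dim, at percentile 17.2 of all genes for IRF8, 4.97 for CXCL9 and 24.8 for TRIM38, with no detection call. The 11 measured genes of antigen presentation were 6 higher and 5 lower. B2M, the light chain of MHC class I, stood at 8.78 ± 0.04 against 8.62 ± 0.03 with separate groups, whereas TAP1, the peptide transporter gene, differed by -0.21 and PSME1, a proteasome activator, by -0.13. Limma adjusted p of TBK1, IRF8, CXCL9, TRIM38 and B2M was 0.644 each.

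**Figure D5:**
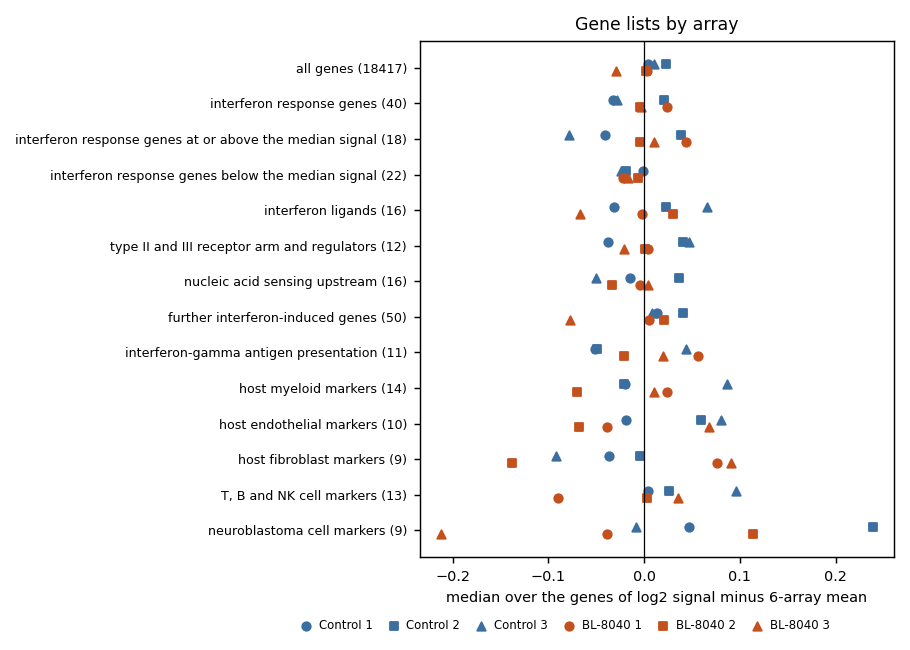
Median over the genes of a list of the log2 signal minus each gene's 6-array mean (x axis, log2 units) for each array, with the number of measured genes in brackets (y axis); blue marks controls, orange BL-8040, and circles, squares and triangles replicates 1, 2 and 3. Control and BL-8040 arrays overlap for the interferon response genes and for each of the 5 further interferon lists, and the widest spread is that of the neuroblastoma markers, with BL-8040 replicate 3 lowest at -0.21 and Ctrl replicate 2 highest at 0.24.

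Marker genes of host cell types that can answer interferon were read through the same human probe sets. Whether their signal came from mouse cells or from the human tumour cells was not measured. Markers of 1 list could lie far apart, such as EMCN at percentile 96.3 of signal and KDR at 12.1. The summed signal of the 14 myeloid markers, on the log2 scale, ranged from 9.27 to 9.40 after BL-8040 and from 9.27 to 9.34 in controls, with 7 higher and 7 lower. That of the 9 fibroblast markers ranged from 12.22 to 12.32 against 12.19 to 12.25, with 7 higher. The 10 endothelial markers summed to 9.94 to 10.23 against 9.77 to 9.86, through EMCN (0.35), while 7 of the 10 were lower, PECAM1 (-0.21) and CDH5 (-0.11) among them. The 13 measured T, B and NK cell markers summed to 7.99 to 8.08 against 8.05 to 8.15. The neuroblastoma markers, 8 of 9 of them lower, summed to 12.78 to 13.21 against 13.05 to 13.21. The part of any of these in the members' values was not tested.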

How the data were processed

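The authors deposited 1 table of log2 signals per probe set from Affymetrix Human Gene 1.0 ST arrays, 1 array per mouse, made from 200 ng of total RNA per the labels' protocols. Per the submitters' processing notes Partek 6.6 was used in an unnamed role; the sources used here do not give the background correction, normalization between arrays or probe summarization. Values were not normalized again. The platform annotation gave 1 symbol to 19460 probe sets; of several per gene the one with the highest 6-array mean was kept, which left 18417 genes.

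Groups and replicate numbers came from the sample titles. All genes were fitted with lmFit and eBayes in limma 3.58.1 (R 4.3.3), two-sided and without a block, with Benjamini-Hochberg adjustment over the whole table. The threshold was an adjusted p under 0.05, and SE is the moderated standard error. The fit was tested on simulated data with the means and spreads of these genes. Changes of 0.3, 0.58, 1 and 2 log2 units were put in together, each in 50 genes. At an adjusted p under 0.05 the fit called 6 of 50 changes of 0.3 log2 units and 48 of 50 of 0.58. It called all 50 of 1 and all 50 of 2, and also 9 unchanged genes. Most changes of 0.3 log2 units thus went uncalled there. Because the adjustment runs over all genes, the larger changes made the smaller ones easier to call. These shares therefore do not carry over to data in which few or no genes change. The number of arrays limits the precision. All members are named; array by array are given those of the signalling chain, the 6 with the highest signal, those at an unadjusted p under 0.05 or with separate groups, and the 3 highest and 3 lowest differences; of other lists, up to 3 genes with the smallest p. The members and lists were chosen with earlier results of these data known. Same-numbered arrays of the groups are not stated to be paired. Sequences were not used here.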

Additional observations from a re-analysis of the deposited data

How the results depend on the processing

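No member and no other gene was called under any of the filters, normalizations, moderation settings or weights tried, at an adjusted p under 0.1, or with 1 array left out; at an unadjusted limma p under 0.05 there were 487 higher and 935 lower genes, 2 and 1 of them members. Separate groups counted 5 of 18 members higher and 1 lower with genes at or above the median signal (6.57% and 8.16% of all genes kept) and with genes at or above log2 6 (6.55% and 8.19%). They counted 8 of 40 higher and 1 lower with median centring (6.42% and 6.87%), and 8 higher and 2 lower with quantile normalization (6.75% and 7.34%). With 1 array left out, members with separate groups were 6 to 10 higher and 2 to 5 lower. The sign of the difference held in every alternative that kept the gene for 23 members, and 17 changed it when some array was left out, where the differences ranged for EIF2AK2 from -0.0679 to 0.042, GBP2 -0.12 to 0.0305, HERC5 -0.0122 to 0.0307, HERC6 -0.11 to 0.0396, IFI35 -0.11 to 0.0442, IFI6 -0.0763 to 0.0241, IFIT2 -0.0065 to 0.18, IFIT3 -0.0768 to 0.0399, ISG20 -0.22 to 0.0235, JAK1 -0.0135 to 0.024, MX1 -0.0796 to 0.0335, OAS2 -0.0395 to 0.0418, OASL -0.11 to 0.0481, PARP9 -0.0495 to 0.0485, RSAD2 -0.0047 to 0.56, SP110 -0.12 to 0.0981 and USP18 -0.18 to 0.13. The mean of probe sets turned GBP2 to 0.0187. Quantile normalization turned IFIT3 to 0.0164, OAS2 to 0.0252, SP110 to 0.0308 and USP18 to 0.0235. Median centring turned IFIT3 to 0.0005, OAS2 to 0.0138, SP110 to 0.0177 and USP18 to 0.0094. Array weights turned EIF2AK2 to -0.0024, HERC5 to -0.0013, IFI35 to 0.0036, IFIT3 to 0.018, OAS2 to 0.0066, OASL to 0.0173 and SP110 to 0.0449. RSAD2, at 0.33 with all arrays, was the largest difference to change sign; the cause was not tested. With the replicate number as a block, 0 genes were called and the median difference of the members was -0.0011. Same-numbered arrays had correlations of their deviations of -0.04, 0.02 and 0.08, and differently numbered arrays between -0.09 and 0.07. With 3 arrays per group these values cannot decide whether the numbers mark pairs. Arrays carry no detection call, so nothing here separates a dim member from an absent one.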
